A study of Mus musculus with 17 samples.

Results

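The genes described here are 5 transcription factor genes of the macrophage lineage: Cebpa, Cebpb and Cebpd, which encode the C/EBP factors alpha, beta and delta, Myc, and Spi1, which encodes PU.1. They were chosen by gene symbol, with earlier results of these data known. They are 5 of the 8252 genes named on the array. Each was read by 1 of its 12488 probe sets, and all 5 were among the 9871 probe sets tested. RNA was measured in macrophages grown from the bone marrow of irradiated mice that had received fetal liver cells of SOCS3+/+ embryos (called WT) or SOCS3-/- embryos (called KO). The hosts of both genotypes were thus irradiated and reconstituted, and the macrophages came from the donor-derived marrow cells. The 6 groups were unstimulated WT (n = 2) and WT after IL-6 at 10 ng/ml for 100 min (n = 3) or 400 min (n = 3), and KO unstimulated (n = 3) and after IL-6 for 100 min (n = 3) or 400 min (n = 3). The labels number the replicates but do not say whether they were separate cultures, mice or donors, so a p-value here reflects only how these arrays vary, and that variation may be technical.

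PU.1 is an Ets family factor that opens and marks the enhancers of myeloid genes and is kept at a high level throughout the life of a macrophage. C/EBP factors are basic leucine zipper proteins that bind such enhancers together with PU.1: C/EBP alpha drives the step from progenitor to myeloid cell and restrains division, whereas C/EBP beta and C/EBP delta are raised by inflammatory cytokines. Myc pairs with Max to drive growth and division, is held down in macrophages as they mature, and is induced by STAT3 in several cell types. IL-6 signals through gp130 and STAT3, and SOCS3 is the feedback inhibitor that binds gp130 and shuts this signal down.

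In KO cells Cebpa fell and Cebpd rose at 100 min, and Cebpa was again lower than in unstimulated cells at 400 min. Myc was called higher at both times, but it was dim and entered the test only through stimulated KO arrays. Among the alternatives of the analysis, the Cebpd call held in 9 of 27, and the Myc calls in 10 of 26 at 100 min and 19 of 26 at 400 min. Cebpb was higher on all 6 stimulated KO arrays than on the 3 unstimulated ones but did not pass the test, and Spi1 passed in no comparison. In WT cells none of the 5 passed at either time, and only 0.0101% of all probe sets did at each. A direct test of whether the KO response differs from the WT response passed for none of the 5, and for 0% of all probe sets. The calls made in KO alone thus do not show that the genotypes differed.

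Sequence just upstream of the transcription start was matched by symbol for Cebpa and Cebpb of the 5 genes. It is shown because the log2 differences of these paralogues had opposite signs in every response. The RefSeq windows of build GRCm38.p6 hold the 250 bases before the start, on the plus strand, at chr7:35119043-35119292 for Cebpa and chr2:167688665-167688914 for Cebpb. Capitals mark matches to the pattern searched for NF-kappaB, on either strand, with overlapping matches merged.
Cebpa: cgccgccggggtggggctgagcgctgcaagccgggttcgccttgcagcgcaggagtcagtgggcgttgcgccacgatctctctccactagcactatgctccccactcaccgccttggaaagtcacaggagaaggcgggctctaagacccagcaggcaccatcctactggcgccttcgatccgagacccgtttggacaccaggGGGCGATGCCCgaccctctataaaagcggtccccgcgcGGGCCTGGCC
Cebpb: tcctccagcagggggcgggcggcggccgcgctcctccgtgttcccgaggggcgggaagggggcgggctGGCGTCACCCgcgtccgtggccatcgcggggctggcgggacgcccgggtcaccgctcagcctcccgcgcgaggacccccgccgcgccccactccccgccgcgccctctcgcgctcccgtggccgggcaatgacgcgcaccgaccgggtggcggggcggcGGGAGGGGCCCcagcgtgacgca
The 6 patterns searched on both strands were TTCNNNGAA for STAT, TTGCNNAA for C/EBP, CACGTG for the E box that Myc and Max bind, GAGGAAG for PU.1, a loose pattern for NF-kappaB (3 G, any 5 bases, 2 C) and TGACGTCA for the cAMP response element. In both windows only the NF-kappaB pattern was found, which 45.8% of the 32851 windows of this length hold. The other 5 patterns occur in 7.02%, 9.56%, 6.02%, 10.6% and 1.55% of windows, in the order given. A match is a run of letters and not a measured binding site.

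Values are deposited intensities after quantile normalization between arrays, without a unit, and are not compared between probe sets. A log2 difference is between group means of log2 intensity after a floor of 22.01, the 10th percentile of all values, was set. A gene is called here, and said to have risen or fallen, at an adjusted p under 0.05 by limma with Benjamini-Hochberg adjustment over 9871 tested probe sets, for each of 11 comparisons. Comparisons of 100 and of 400 min with unstimulated cells share the unstimulated arrays. In whole cultures, fewer cells of a type and less RNA per cell cannot be told apart.

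The targeted gene Socs3 was read by 2 probe sets. They lay between 432 and 2552 on the stimulated WT arrays and between 16.5 and 333 on 8 of the 9 KO arrays, but KO 400 min replicate 3, as labelled, gave 903 and 793. In WT the log2 differences of Socs3 at 100 and 400 min were 3.99 and 4.78 on 1 probe set, and 2.91 and 3.36 on the other. None of these was called (limma, adjusted p from 0.222 to 0.593). Y-linked Eif2s3y was at 245 to 790 on WT arrays and 7.67 to 112 on KO arrays, and Xist at 11.1 to 188 and 228 to 993, so sex and genotype cannot be told apart in comparisons of KO with WT. The replicate 3 arrays stood apart: 717 probe sets (364 higher, 353 lower, 7.26% of those tested) differed between them and replicates 1 and 2. None of the 5 genes was among these, with log2 differences of 0.39 for Cebpa, 0.40 for Cebpb, 0.24 for Cebpd, -0.42 for Myc and -0.38 for Spi1. Cebpa came closest and only just missed the threshold (limma, adjusted p = 0.0563). Unstimulated WT has no replicate 3 array. Of the 10 macrophage markers, 8 lay above the 40th percentile of the array on all 17 arrays, among them Csf1r, Cd68 and Lyz2, whereas Marco did so on none.

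Cebpa fell in KO cells after IL-6. On unstimulated arrays its intensity was 2104 and 2566 in WT, and 2623, 3230 and 3596 in KO, for replicates 1, 2 and 3. After 100 min it was 1398, 1512 and 1787 in WT and 1142, 1163 and 1652 in KO. After 400 min it was 1626, 1410 and 1887 in WT and 941, 826 and 1263 in KO. Every stimulated array lay below every unstimulated array of its genotype, and the unstimulated KO arrays were the highest of all 17. In KO the 400 and 100 min arrays overlapped.

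At 100 min Cebpa in KO cells differed from unstimulated by -1.26 on the log2 scale (SE 0.24, adjusted p = 0.0301), a level 2.4-fold lower. At 400 min it differed by -1.65 (SE 0.24, adjusted p = 0.00362), a level 3.14-fold lower. Cebpa was 1 of the 4 probe sets called lower at 100 min (0.0405% of those tested) and 1 of 62 called lower at 400 min (0.628%). The further difference between 400 and 100 min in KO, -0.39 (SE 0.24, adjusted p = 0.705), did not pass. No single array among the 17 decided the 400 min call, which held without any one of them (adjusted p up to 0.026). It was lost when only the KO unstimulated and 400 min arrays were fitted (-1.65, adjusted p = 0.0837). The 100 min call was less firm: it was lost without unstimulated KO replicate 1, 2 or 3 (adjusted p = 0.0596, 0.137 and 0.136), without KO 100 min replicate 1 or 2 (0.182 and 0.161), and without KO 400 min replicate 1 (0.0519).

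The WT differences of Cebpa were smaller, -0.58 (SE 0.27, adjusted p = 0.814) after 100 min of IL-6 and -0.51 (SE 0.27, adjusted p = 0.827) after 400 min. These arrays did not overlap either, but with 2 unstimulated arrays 11.3% and 11.2% of all probe sets were lower without overlap. Between genotypes, Cebpa differed by 0.43 (adjusted p = 0.895) in unstimulated cells and by -0.71 (SE 0.24, adjusted p = 0.36) at 400 min, KO minus WT, with no overlap between arrays at either time. The KO response was more negative than the WT response by 0.69 (95% interval -1.47 to 0.09) at 100 min and by 1.14 (SE 0.36, 95% interval -1.92 to -0.36) at 400 min. The latter had an unadjusted p of 0.0073 and an adjusted p of 0.616, and it includes the higher unstimulated level of the KO arrays.

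**Figure D1:**
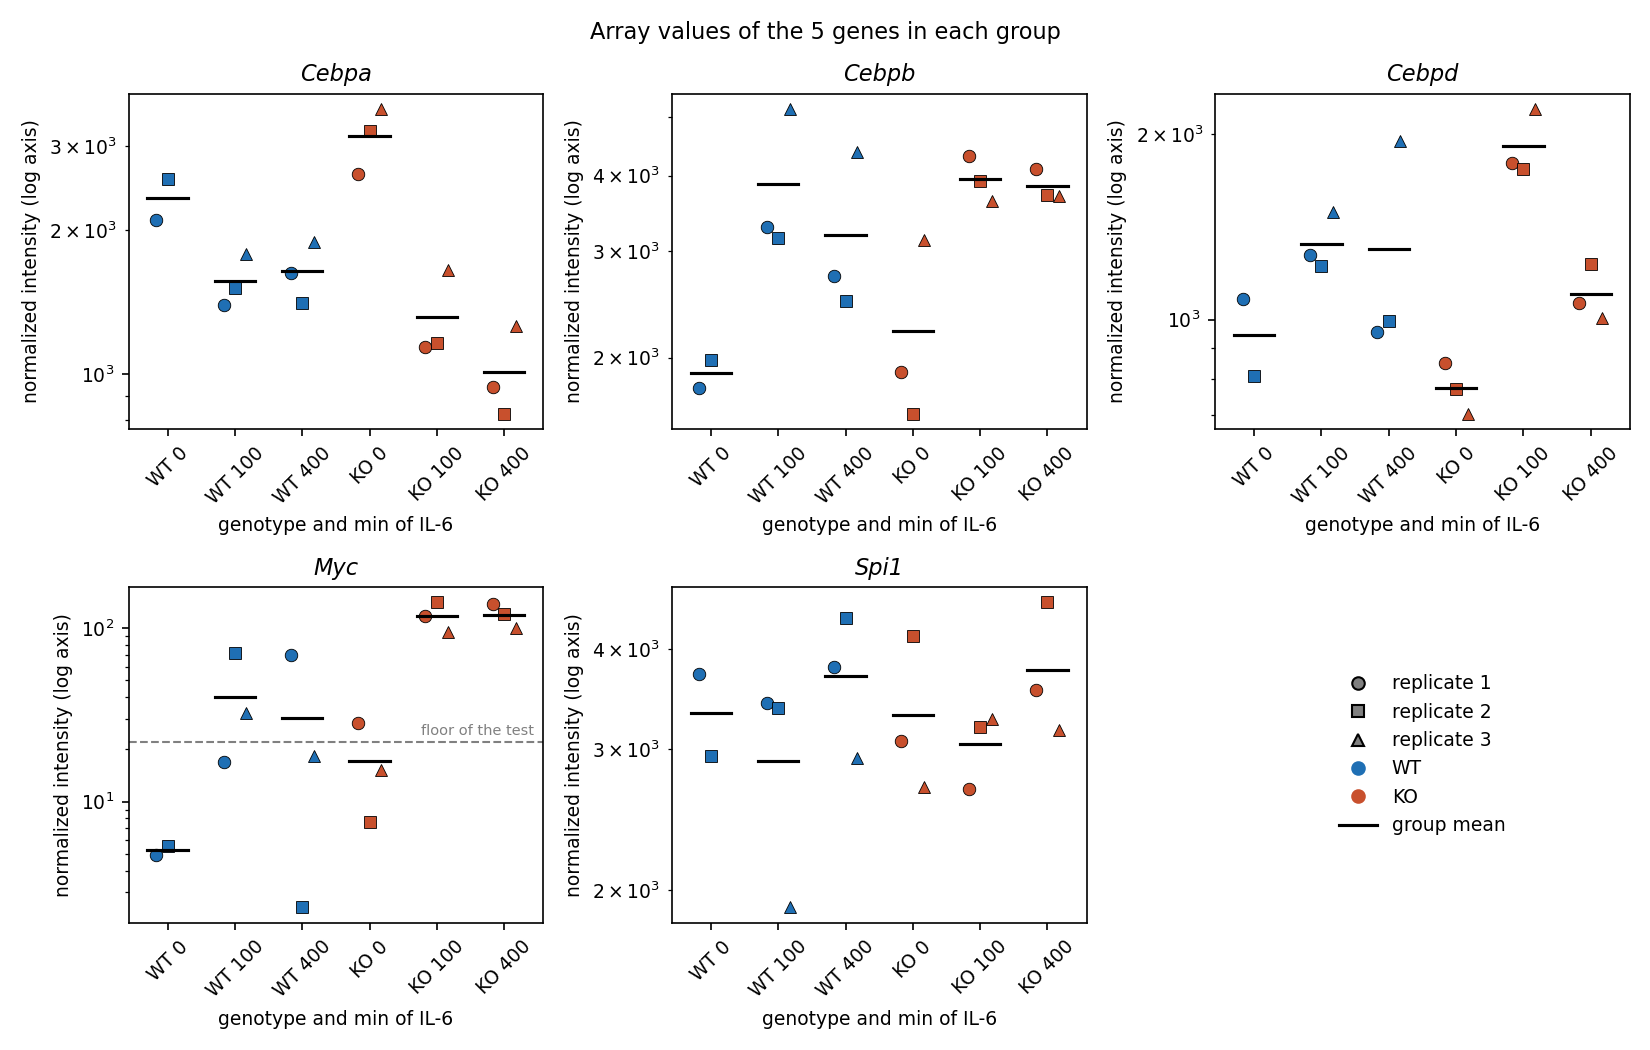
Normalized intensity (log axis) of the 5 genes on each of the 17 arrays (points, with the replicate marked), by genotype and minutes of IL-6, with the mean of each group as a horizontal line and the floor of 22.01 dashed for Myc. Cebpa lies between 826 and 1263 on KO arrays at 400 min against 2623 to 3596 unstimulated, and Myc lies between 95.2 and 141 on the stimulated KO arrays.

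Cebpb was 1.64-fold to 2-fold higher after stimulation in both genotypes without passing the test. In WT its intensity was 1785 and 1984 unstimulated, 3288, 3157 and 5157 at 100 min, and 2727, 2479 and 4377 at 400 min. In KO it was 1892, 1616 and 3131 unstimulated, 4315, 3917 and 3626 at 100 min, and 4106, 3717 and 3695 at 400 min. No stimulated array overlapped the unstimulated arrays of its genotype. The unstimulated KO array of replicate 3 was well above the other 2, and WT replicate 3 was the highest WT array at both times.

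The log2 difference of Cebpb in WT was 1.00 after 100 min (SE 0.33, adjusted p = 0.639) and 0.72 after 400 min (SE 0.33, adjusted p = 0.791). In KO it was 0.89 (SE 0.29, adjusted p = 0.404) and 0.85 (SE 0.29, adjusted p = 0.217). For replicates 1, 2 and 3 taken singly, the KO difference at 100 min was 1.19, 1.28 and 0.21, and that at 400 min 1.12, 1.20 and 0.24. Within replicates 1 and 2 alone it was 1.23 (adjusted p = 0.0276) and 1.16 (adjusted p = 0.0225), both called. With array weights the 400 min difference was also called (0.97, adjusted p = 0.0271). The KO and WT responses of Cebpb differed by -0.11 (95% interval -1.06 to 0.84) at 100 min and 0.14 (95% interval -0.81 to 1.08) at 400 min, so a 2-fold difference in response is inside the first interval in one direction and inside the second in the other.

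Cebpd, which in many cells rises early and briefly after a cytokine, rose in KO cells at 100 min and was not called at 400 min. Unstimulated intensities were 1079 and 809 in WT and 851, 772 and 703 in KO. At 100 min they were 1271, 1222 and 1493 in WT and 1796, 1757 and 2201 in KO. At 400 min they were 955, 993 and 1953 in WT and 1065, 1230 and 1007 in KO. All 3 KO arrays at 100 min lay above all KO arrays at the other times and above all WT arrays at 100 min. In WT at 400 min replicate 3 was far above the others, and the group overlapped the unstimulated arrays.

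Cebpd was higher by 1.30 (SE 0.27, adjusted p = 0.0468) in KO cells at 100 min, which is 2.47-fold. It was the last of the 57 probe sets called in this comparison (0.577% of those tested; 0.537% called higher). The call did not survive the loss of any 1 of 14 of the 17 arrays, with adjusted p from 0.0568 to 0.181. It was kept only without WT 100 min replicate 3, WT 400 min replicate 1 or WT 400 min replicate 3. The difference itself ranged from 1.20 to 1.37 with an array left out and was 1.13 (adjusted p = 0.0524) within replicates 1 and 2. At 400 min Cebpd in KO was higher than unstimulated by 0.50 (SE 0.27, adjusted p = 0.504), and lower than at 100 min by a log2 difference of -0.80 (SE 0.27, adjusted p = 0.382). In WT the differences were 0.50 (adjusted p = 0.89) and 0.39 (adjusted p = 0.93). The KO and WT responses of Cebpd differed by 0.80 (SE 0.40, 95% interval -0.06 to 1.67, unadjusted p = 0.0665, adjusted p = 1) at 100 min and by 0.11 (95% interval -0.75 to 0.97) at 400 min.

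Myc was dim on every array, and its probe set lay above the 40th percentile of its array on only 2 of 17. Both were stimulated KO arrays, so it passed the filter on dim probe sets only through the groups in which it is high. In WT its intensity was 4.95 and 5.58 unstimulated, 17, 71.6 and 32.3 at 100 min and 69.9, 2.46 and 18.4 at 400 min. In KO it was 28.5, 7.61 and 15.2 unstimulated, 117, 141 and 95.2 at 100 min, and 138, 120 and 100 at 400 min. All 6 stimulated KO arrays lay above all of the other 11 arrays. The stimulated WT arrays overlapped each other, and of the 11 arrays outside the stimulated KO groups 7 were below the floor.

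In KO cells the Myc difference from unstimulated cells was 2.28 after 100 min (SE 0.46, adjusted p = 0.0403) and 2.31 after 400 min (SE 0.46, adjusted p = 0.02), which is 4.85-fold and 4.95-fold on the floored scale. At 400 min it was 1 of 118 probe sets called higher (1.2%). Because some unstimulated values were below the floor, these folds depend on where the floor was set. With log2(value + 50) in place of the floor the log2 differences were 1.33 (adjusted p = 0.0543) and 1.34 (adjusted p = 0.024). With no filter on dim probe sets, the 100 min difference was not called (adjusted p = 0.054) and the 400 min one was (adjusted p = 0.0277). The 100 min call was lost without any 1 of 11 arrays: the 2 unstimulated WT arrays and all 9 KO arrays (adjusted p from 0.052 to 0.19). The 400 min call was lost without any unstimulated KO array or without KO 400 min replicate 1 or 2 (adjusted p from 0.0527 to 0.0827). Within replicates 1 and 2 the differences were 2.36 (adjusted p = 0.199) and 2.37 (adjusted p = 0.111). With a spread that depends on intensity, which gives a dim probe set a larger error, they were not called (adjusted p = 0.212 and 0.0813).

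In WT cells the Myc difference was 0.75 after 100 min (SE 0.51, adjusted p = 0.897) and 0.56 after 400 min (SE 0.51, adjusted p = 0.958). KO exceeded WT by 1.65 after 100 min (SE 0.46, adjusted p = 0.518) and by 1.88 after 400 min (SE 0.46, adjusted p = 0.128), with no overlap between arrays. Higher values without overlap were found in 4.19% and 7.2% of all probe sets in these comparisons. Without WT 400 min replicate 1, the highest WT array at that time, the 400 min difference was 2.43 (adjusted p = 0.0228) and was called. The responses of Myc in KO and WT differed by 1.53 (95% interval 0.06 to 3.00, unadjusted p = 0.0428, adjusted p = 1) at 100 min and 1.75 (95% interval 0.28 to 3.22, unadjusted p = 0.0229, adjusted p = 0.842) at 400 min. An unadjusted p under 0.05 was reached by 3.66% and 5.38% of probe sets in these comparisons, and an adjusted p under 0.05 by 0%. These Myc values rest on floored arrays, and with log2(value + 50) the responses differed by 0.66 (SE 0.44, adjusted p = 1) and 0.89 (SE 0.44, adjusted p = 0.871).

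Spi1, the gene of PU.1, kept a high level in all groups. Its intensity was 3724 and 2939 in unstimulated WT, 3428, 3372 and 1903 at 100 min and 3799, 4377 and 2921 at 400 min. In KO it was 3074, 4154 and 2688 unstimulated, 2671, 3193 and 3270 at 100 min, and 3551, 4577 and 3171 at 400 min. All groups overlapped, and the probe set lay no lower than percentile 92.3 of its array throughout. The log2 differences from unstimulated cells were -0.24 (95% interval -0.92 to 0.44) and 0.14 (-0.54 to 0.82) in WT and -0.10 (-0.71 to 0.51) and 0.20 (-0.41 to 0.80) in KO. KO and WT differed by -0.03 (-0.70 to 0.65) unstimulated, 0.11 (-0.49 to 0.72) at 100 min and 0.03 (-0.58 to 0.63) at 400 min. All of these intervals leave out a 2-fold difference.

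**Figure D2:**
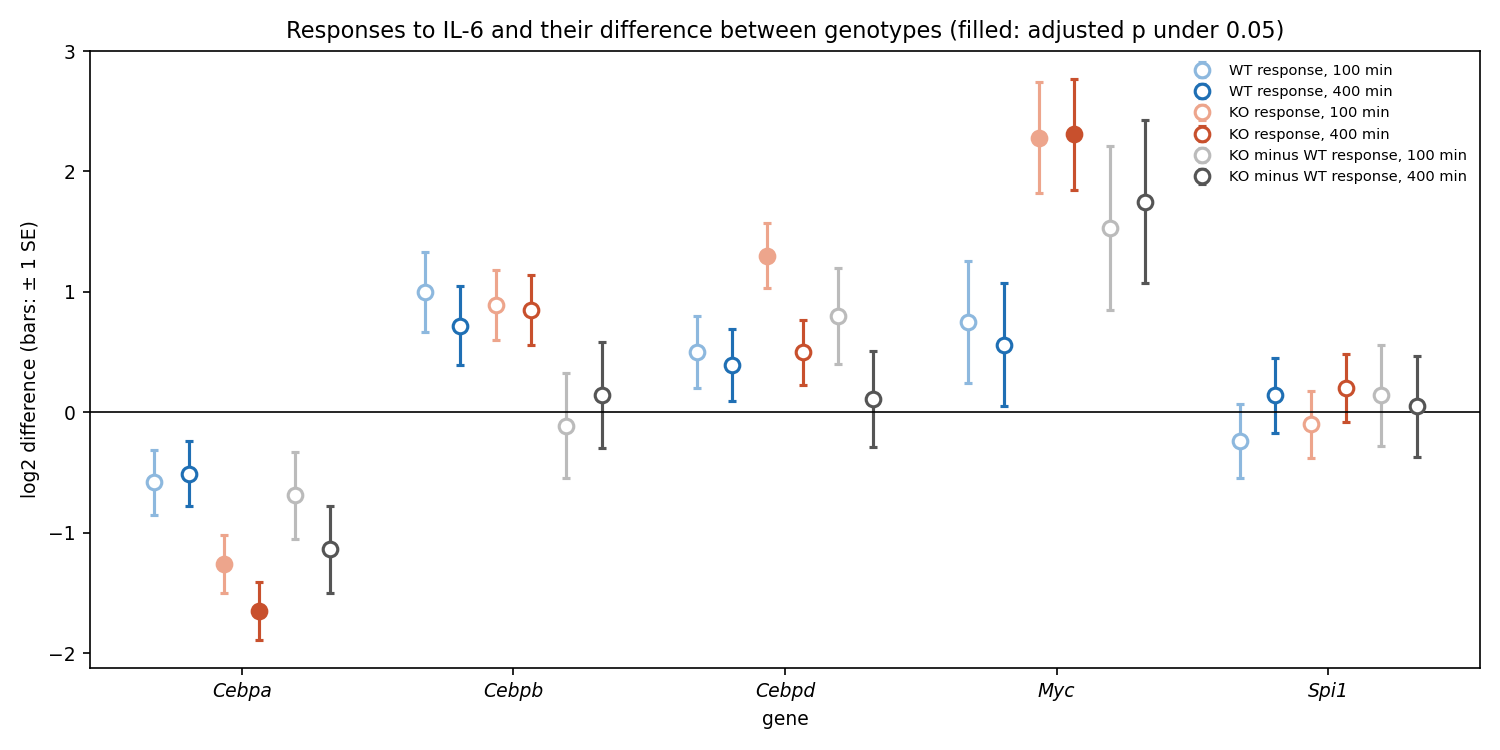
Log2 difference of each of the 5 genes after 100 or 400 min of IL-6 from unstimulated cells, in WT and in KO, and the KO response minus the WT response (grey), with 1 SE of the limma fit as bars and called values filled. Filled points are KO responses only: Cebpa (-1.26), Cebpd (1.30) and Myc (2.28) at 100 min, and Cebpa (-1.65) and Myc (2.31) at 400 min.

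By group mean ± SD, the order for Cebpa ran from unstimulated KO (3150 ± 492, n = 3) and unstimulated WT (2335 ± 327, n = 2) through WT at 400 min (1641 ± 239) and at 100 min (1566 ± 200) to KO at 100 min (1319 ± 289) and at 400 min (1010 ± 226, n = 3 each). The WT groups at 100 and 400 min overlapped, as did WT and KO at 100 min. For Cebpd, KO at 100 min was highest (1918 ± 246, n = 3) and unstimulated KO lowest (775 ± 73.8, n = 3). WT at 100 min (1328 ± 144), WT at 400 min (1300 ± 566), KO at 400 min (1101 ± 116) and unstimulated WT (944 ± 191, n = 2) lay between them, and neighbours among these 4 overlapped. The end groups overlapped some of them too. WT at 400 min reached 1953 and KO at 100 min began at 1757. Unstimulated WT began at 809 and unstimulated KO reached 851. For Cebpb, KO at 100 min (3952 ± 346), WT at 100 min (3867 ± 1119), KO at 400 min (3840 ± 231), WT at 400 min (3194 ± 1032), unstimulated KO (2213 ± 807, n = 3) and unstimulated WT (1884 ± 141, n = 2) all overlapped as neighbours. For Myc, KO at 400 min (120 ± 19.0) and at 100 min (118 ± 22.9) overlapped and were highest (n = 3 each). The other 4 groups hold arrays below the floor and are not ordered. For Spi1, KO at 400 min (3766 ± 728), WT at 400 min (3699 ± 733), unstimulated WT (3331 ± 555, n = 2), unstimulated KO (3305 ± 760), KO at 100 min (3045 ± 326) and WT at 100 min (2901 ± 865, n = 3 each but for WT unstimulated) overlapped throughout.

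Counted together, 3 of the 5 genes were called in KO cells at 100 min against 0.577% of all probe sets, and 2 of 5 at 400 min against 1.82%. The genes were chosen with earlier results of these data known, so these shares only describe them. Myc is among both counts although it passed the filter only through stimulated KO arrays. Without it they are 2 of 4 and 1 of 4. None was called in WT cells at 100 or 400 min, where 0.0101% of all probe sets were called in each comparison. In limma's unadjusted test, which 6.12% and 6.26% of all probe sets passed in WT at 100 and 400 min, Cebpb passed at both times and the other 4 at neither. None of the 5 was called between KO and WT at 400 min (0.365% of all called), at 100 min (0.0405%) or unstimulated (0%), nor between 400 and 100 min in either genotype (0% each). Groups that did not overlap were also frequent among all probe sets. In KO, 3 members were higher and 1 lower without overlap at 100 min (background 5.68% and 5.66%), and likewise at 400 min (8.53% and 9.1%). In WT, 2 were higher and 1 lower at 100 min (10.7% and 11.3%), and 1 higher and 1 lower at 400 min (10.7% and 11.2%). Between genotypes, KO was higher without overlap for Cebpa unstimulated (11.6%), for Cebpd and Myc at 100 min (4.19%) and for Myc at 400 min (7.2%), and lower for Cebpa at 400 min (7.55%). Myc is among the higher genes both in KO and between genotypes, although it passed the filter only through stimulated KO arrays. From 100 to 400 min in KO, Cebpd was lower without overlap (7.5%). Without KO 400 min replicate 3, whose Socs3 level went against its label, Cebpa and Myc were still called at 400 min, and of the 3 calls at 100 min Cebpa was kept.

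**Figure D3:**
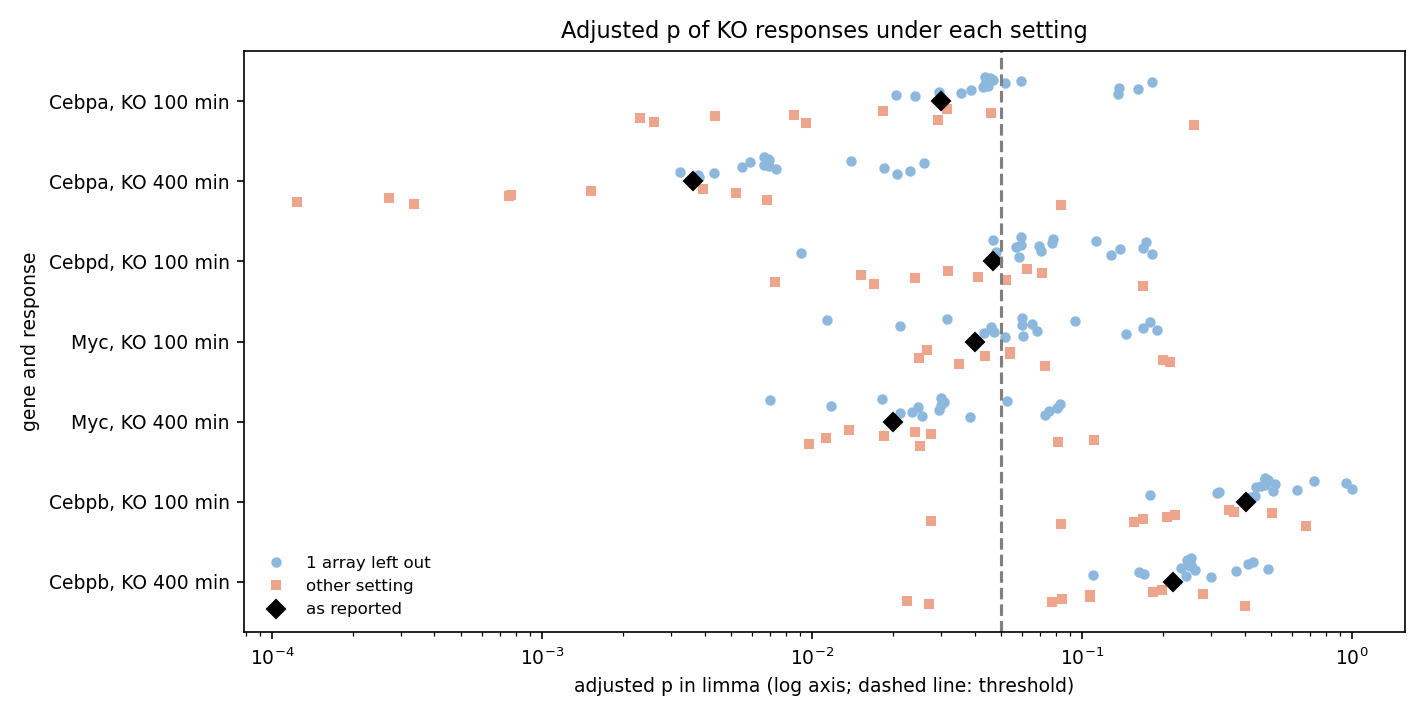
Adjusted p in limma (log axis, with the threshold of 0.05 as a dashed line) of Cebpa, Cebpd, Myc and Cebpb responses in KO cells: as reported (diamonds), with 1 array left out (circles) and under each other processing alternative (squares). Cebpa at 400 min is left of the line in 26 of 27 alternatives, whereas Cebpd at 100 min is left of it in 9 of 27.

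Around the C/EBP genes, a list of family members and partners had 8 of 13 genes tested, and taking each gene's brightest probe set, 0 were called in KO cells at either time. The medians were 0.14 at 100 min and -0.13 at 400 min, beside -0.04 for all probe sets in both comparisons. Nfil3, a basic leucine zipper repressor related to the C/EBP factors, was read by 2 probe sets that disagreed. The brighter one gave 0.87 (adjusted p = 0.821) and 1.09 (adjusted p = 0.288), and the other, looked at after the values were seen, gave 2.51 (adjusted p = 0.0274) and 2.18 (adjusted p = 0.032). Of 26 tested C/EBP target genes of myeloid cells, 0 were called at 100 min and 2 rose at 400 min, with medians of 0.11 and 0.39. Within replicates 1 and 2 the latter was 0.19, and 2 target genes were called at 100 min and 5 at 400 min. Over all probe sets that setting gave 117 and 276 calls, against 57 and 180 as reported. Arg1, the arginase of alternatively activated macrophages, rose by 4.59 (adjusted p = 0.0127) and Il1b, the gene of interleukin 1 beta, by 2.81 (adjusted p = 0.0419). On the unstimulated KO arrays Il1b was dim, at 27.2, 26.3 and 12.3, and Arg1 lay at 63.8, 21 and 67. Each had 1 value below the floor of 22.01, so the size of both differences depends on where the floor was set. Arg1 lay at 2645 and 2683 on KO 400 min replicates 1 and 2 but at 184 on replicate 3, and its difference within replicates 1 and 2 was 6.15.

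Around Myc, the network of Max, Mxd and related factors had 15 of 20 genes tested, of which 1 rose in KO cells at 100 min and 2 at 400 min, with medians of -0.13 and 0.27. Pim1, a STAT3-induced kinase that cooperates with Myc, rose by 1.66 (adjusted p = 0.00299) and 2.01 (adjusted p = 0.000479). A second, dimmer Pim1 probe set gave 0.36 (adjusted p = 1) and 1.37 (adjusted p = 0.63). Mxd1, which competes with Myc for Max, was called higher by 2.22 (adjusted p = 0.032) at 400 min. Its level went from 36.8 ± 5.67 to 175 ± 47.0 (SD, n = 3 each). Like Myc, Mxd1 was dim and passed the filter on dim probe sets only through stimulated KO arrays. For Mxd1 these were KO 400 min replicates 1 and 2 (187 and 215). With an array left out, the adjusted p of Mxd1 reached 0.13.

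Of 39 tested Myc target genes of growth, 0 were called in KO cells at either time, and 15 and 17 had a positive difference. Their medians of -0.08 and -0.07 lay close to the -0.04 of all probe sets, and the 400 min median was 0.16 within replicates 1 and 2. The counts depended on the setting: within replicates 1 and 2, 1 was called at 100 min and 3 at 400 min. With a batch term for replicate 3 the counts were 0 and 4. Over all probe sets, 117 and 276 were called within replicates 1 and 2, against 57 and 180 as reported. The batch term gave 94 and 332. E2f1, a driver of S phase, had the smallest adjusted p with a difference of -2.14 (adjusted p = 0.0679) at 400 min, but its other probe set gave 0.25 (adjusted p = 0.949). Of 11 tested genes that Myc represses, 1 rose at both times: Ndrg1, a stress and differentiation gene, by 1.98 (adjusted p = 0.00436) and 3.37 (adjusted p = 6.59e-05). Its second probe set gave 2.04 and 3.38, and KO exceeded WT at 400 min by 2.21 (adjusted p = 0.00521). The list medians were -0.03 and 0.33. The cell cycle list shares 6 listed genes with the Myc targets, of which Ccnd2 was not tested. Of its 33 tested genes, 0 were called and 29 had a negative difference at 400 min, with a median of -0.66 (-0.08 at 100 min). The 400 min median was -0.44 within replicates 1 and 2, where 3 cell cycle genes were called, and 6 were called with a batch term for replicate 3. These settings also called more of all probe sets at 400 min, 276 and 332 against 180. Mki67, the proliferation marker Ki-67, gave -1.08 (adjusted p = 0.057) at 400 min, but its other probe set gave 0.05 (adjusted p = 0.984).

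Around PU.1, 1 of 35 tested target genes of macrophages rose in KO cells at 100 min and 5 at 400 min, with list medians of -0.06 and -0.04, at or next to the -0.04 of all probe sets. The list shares 4 genes with the C/EBP targets, among them Il1b, the fifth gene that rose at 400 min. Fcgr2b, the inhibitory Fc gamma receptor, rose by 3.08 (adjusted p = 0.0123) and 4.92 (adjusted p = 0.000277), to 9914 ± 3383 (SD, n = 3) at 400 min. Fcgr1, the high-affinity Fc gamma receptor and 1 of the 10 macrophage markers, rose by 1.96 (adjusted p = 0.0168) at 400 min, and its other probe set by 2.73 (adjusted p = 0.00542). Csf2rb, the shared beta chain of the receptors for GM-CSF, IL-3 and IL-5, which has a near-identical relative in the mouse that the probe set may also read, rose by 3.20 (adjusted p = 0.0276). Cd53, a tetraspanin of leukocytes, rose by 1.03 (adjusted p = 0.0335). Within replicates 1 and 2, Csf2rb (adjusted p = 0.0521) and Cd53 (adjusted p = 0.098) were not called. Csf1r, the M-CSF receptor and a classic PU.1 target, differed by -0.07 and -0.50 without a call, and Itgam by -0.80 and -0.37. With an array left out, Pim1 and Ndrg1 at both times and Fcgr2b at 400 min stayed called in 17 of 17 fits, whereas Il1b stayed called in 5, Cd53 in 10, Mxd1, Fcgr1 and Csf2rb in 12 and Arg1 and, at 100 min, Fcgr2b in 14. No gene of these lists was called in WT cells at either time, where only 0.0101% of all probe sets were called at each. That does not show that these genes were unchanged in WT. For Pim1, Ndrg1 and Fcgr2b, whose KO 400 min calls held in 17 of 17 fits, unstimulated WT means were 1235, 1115 and 142. The WT means were 2533, 2149 and 1095 at 100 min, and 2542, 2669 and 2192 at 400 min.

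**Figure D4:**
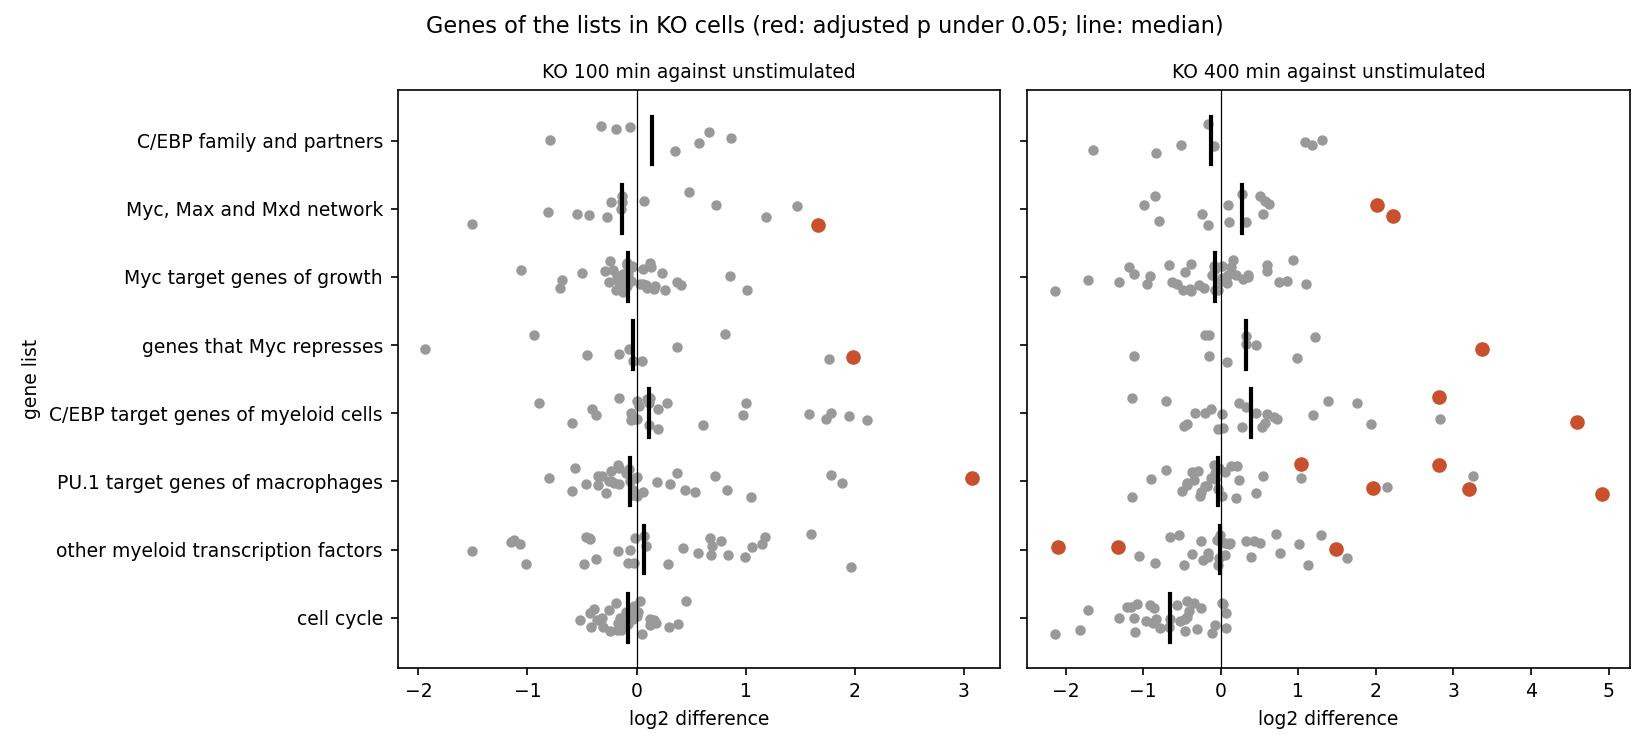
Log2 difference in KO cells at 100 and 400 min for the tested genes of each list (points), with called genes in red and the median of each list as a line. The cell cycle list has the lowest median at 400 min, -0.66, and the Myc targets of growth lie around 0 (-0.07).

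No marker of other cell types was called in KO cells at either time. The summed level of the 13 neutrophil and myeloid precursor markers on the array, genes that C/EBP factors also drive, was 2014 to 2804 on unstimulated KO arrays, 1497 to 2454 at 100 min and 2219 to 2682 at 400 min. That of the 10 macrophage markers was 88392 to 102123, 90664 to 93430 and 79179 to 85259. In these KO groups the summed neutrophil markers overlapped between all times, and the macrophage sum was lowest at 400 min. Of the 10 neutrophil and precursor markers tested, 8 were higher in KO at 400 min (median log2 difference 0.49) and 6 at 100 min (median 0.06), and 8 of the 10 are also on the C/EBP target list, whose median at 400 min was 0.39. Of the 5 erythroid and megakaryocyte markers, 4 were higher at 400 min (median 0.65), and the median at 100 min was 0.67. The summed levels are set mainly by bright genes such as Csf3r. The part of cell composition in the values of the C/EBP targets, Cebpa and Myc was not tested.

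The genes whose levels followed each of the 5 most closely over the 17 arrays were ranked by Pearson's r of log2 intensity among 8729 probe sets. The arrays share their group and their preparation, so r is given as a description. Cebpa was most like Trim47 (r = 0.914), Bri3 (0.871) and Lyl1 (0.869), and Myc most like the chemokine genes Ccl12 (0.924) and Ccl4 (0.915) and Mcoln2 (0.899). Because Myc was set to the floor on 7 of the 17 arrays, its r is less well measured. Spearman's rho of Myc with Ccl12, Ccl4 and Mcoln2 was 0.869, 0.762 and 0.815. Cebpb was most like Id1 (0.88), Slc31a1 (0.861) and Tmem167 (0.86), Cebpd most like Bach1 (0.847), Hsd3b3 (0.807) and Chmp4b (0.782), and Spi1 most like Rfng (0.888), Apbb1ip (0.832) and Acads (0.826). After replicate 3 and replicates 1 and 2 were each centred, Trim47 and Lyl1 stayed among the first 3 for Cebpa, Bach1 for Cebpd, Ccl12 and Ccl4 for Myc and Rfng for Spi1. For Cebpb the first 3 became Rars (0.923), Mbd2 (0.91) and Rnf19b (0.902).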

How the data were processed

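Total RNA of 17 samples was read on Affymetrix-type arrays, 1 array per sample, and each array took its group from its label. The authors deposited 1 linear intensity per probe set and array. From the values, each array's mean, trimmed by 2% at both ends, was 500, so arrays had been scaled. The software is not given in the sources used here. Array medians spanned 0.4 log2 units, more than the 0.3 allowed, so intensities were quantile normalized, floored at the 10th percentile and log2 transformed. The 66 control probe sets were left out, and the tests took probe sets that exceeded the 40th percentile of an array on 2 or more arrays. limma 3.58.1 in R 4.3.3 was fitted with 1 mean per group over the 17 arrays (eBayes, two-sided, residual degrees of freedom 11, prior 2.6), and the script was tested on simulated data. The array's annotation named genes, and probe sets with several genes were left unnamed. Each list gene was read from its brightest probe set. Named genes are the members, per list the called genes (the 4 with the smallest adjusted p where over 4 were called, or, where none was called, the gene with the smallest adjusted p in KO), and the 3 probe sets most like each member. The members and lists were chosen with earlier results of these data known. Alternatives were no quantile normalization, log2(value + 50), no filter or a stricter one (60th percentile on 3 arrays), replicate terms, replicates 1 and 2 alone, only the groups compared, an intensity trend, array weights and leaving out each array; those for list genes were added after seeing the data. The number of arrays limits the precision.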

Additional observations from a re-analysis of the deposited data

How the results depend on the processing

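Over the 5 genes, the 11 comparisons and the alternatives, 1367 of 1474 values kept their sign and their side of the threshold, 49 lost a call, 4 gained one and 54 changed sign, all of the last uncalled. In KO cells at 100 min, where 3 genes were called, 1 was called with no filter, 0 when only the groups compared were fitted, and 0 to 3 with an array left out. At 400 min, where 2 were called, 1 was called with the strict filter (which drops Myc), with an intensity trend or with only the groups compared, and 1 to 2 with an array left out. KO against WT at 400 min had 0 to 1 with an array left out. With only the KO arrays compared, 0 of all probe sets were called at 100 min and 52 at 400 min, against 57 and 180. The strict filter, replicate 3 as a batch term and array weights gave 79, 94 and 94 at 100 min and 268, 332 and 483 at 400 min.

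The replicate number as a block left the counts at 3 and 2 and gave 86 and 305 calls over all probe sets. The labels do not say that a number marks a shared batch: deviations of same-numbered arrays correlated at -0.02 to 0.24 (over 0.1 in 11 of 40 pairs, at least 0.10 in all 10 pairs of replicate 3), and 11 of 17 arrays correlated best with their own number. With the block, Spi1 changed sign in KO against WT unstimulated (0.10) and in the difference of responses at 400 min (-0.07), and Cebpb in that at 100 min (0.02). The replicate 3 term gave the same 0.10, -0.07 and 0.02. Within replicates 1 and 2 the sign changed for Spi1 in WT at 100 min (0.04), in KO against WT unstimulated (0.11), at 100 min (-0.22) and at 400 min (-0.02), and in the differences of responses (-0.33 and -0.13). It also changed for Cebpb in KO against WT unstimulated (-0.11) and the difference of responses at 100 min (0.46), and for Cebpd in KO against WT at 400 min (0.23). Array weights did so for Spi1 in KO against WT at 100 min (-0.05) and the difference of responses at 100 min (-0.01), and for Cebpb in the latter (0.13).

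With an array left out, signs changed within these ranges. For Cebpa: WT 400 against 100 min, -0.04 to 0.17. For Cebpb: KO 400 against 100 min, -0.10 to 0.03, KO against WT at 100 min, -0.06 to 0.29, and unstimulated, -0.11 to 0.37, difference of responses at 100 min, -0.31 to 0.17, and at 400 min, -0.06 to 0.42. For Cebpd: WT 400 against 100 min, -0.44 to 0.07, KO against WT at 400 min, -0.34 to 0.17, difference of responses at 400 min, -0.10 to 0.45. For Myc: KO 400 against 100 min, -0.11 to 0.17, and WT 400 against 100 min, -0.75 to 0.28. For Spi1: WT at 100 min, -0.41 to 0.04, and at 400 min, -0.03 to 0.31, KO at 100 min, -0.24 to 0.08, KO against WT unstimulated, -0.20 to 0.15, at 100 min, -0.16 to 0.26, and at 400 min, -0.13 to 0.16, difference of responses at 100 min, -0.14 to 0.32, and at 400 min, -0.12 to 0.23. The cause of these changes was not tested. The table has no detection calls, so the limit of detection for Myc is not known.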

Other observations

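Among 31 tested transcription factors of myeloid cells other than the C/EBP factors, Myc and PU.1, 0 were called in KO cells at 100 min, and at 400 min 1 rose and 2 fell, with a list median of -0.01 beside -0.04 for all probe sets. Junb, an AP-1 factor that STAT3 induces, rose by 1.49 (limma, adjusted p = 0.0304), from 628 ± 153 unstimulated to 1740 ± 268 (SD, n = 3 each), and its other probe set gave 1.17 (adjusted p = 0.0586). Fos, the AP-1 partner of the Jun proteins, fell by 2.10 on the log2 scale (adjusted p = 0.0357), from 975 ± 238 to 227 ± 51.8. Hhex, a homeobox factor of blood cell precursors, fell by 1.33 on the log2 scale (adjusted p = 0.0192), from 385 ± 81.5 to 151 ± 14.9. Arrays did not overlap for any of the 3 genes, beside 8.53% of all probe sets higher and 9.1% lower without overlap. With each array left out in turn, the call was kept in 11 of 17 fits for Junb, 9 for Fos and 13 for Hhex, with adjusted p up to 0.137, 0.134 and 0.0859.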
